A study of Mus musculus with 20 samples.

Results

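Hydroxyurea (HU) was given to p19/Nras cells that lack Trim33, and the change in mRNA levels against vehicle-treated cells of the same genotype is described here for all genes. The response was read from the 4 Trim33-KO libraries of the HU experiment, 2 with vehicle and 2 with HU, out of 20 libraries in the series. These libraries were chosen by their labels and column names, so no measured value entered the choice. The p19/Nras line comes from a mouse liver cancer, and the labels give its cell type as HCC. All groups share its loss of p19/Arf and its Nras oncogene. KO cells carry the genotype sgTrim33, a CRISPR guide against Trim33, and WT cells carry sgCtrl, a control guide. HU was applied at 1 mM for 4 h. The labels do not say which of the study's knockout lines was used here, nor whether it is 1 clone, nor whether the replicate libraries came from separate cultures, so that p-values measure only the spread between these libraries.

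HU blocks ribonucleotide reductase, the enzyme that makes deoxynucleotides, and replication forks stall when these run short. Stalled forks activate checkpoint kinases, which hold back mitosis and can stabilize p53, a transcription factor with targets in cell cycle arrest, apoptosis and repair. Replication-dependent histone mRNAs are made in S phase and are degraded quickly once DNA synthesis stops. Trim33 is a ubiquitin ligase of the TRIM family that is also known as a modulator of TGF-β signaling.

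The libraries held between 2504439 and 3046581 counts in KO cells and between 2315327 and 3082202 over all 8 libraries of the experiment, spread over 11210 genes. Levels are given as counts scaled to a library total of 1000000 (CPM), and changes as log2 fold change (log2FC) of HU against vehicle, where positive values are higher with HU. Of 23 hepatocyte markers, 2 were in the table: Afp, at 20.2 to 26.5 CPM in the KO libraries, and Apob, at 0.657 to 3.19 CPM, while Alb, Ttr and Hnf4a were not listed. The cholangiocyte and progenitor markers Krt8, Krt18, Krt19, Sox9 and Spp1 were listed, 5 of 9. Their summed level was 2890 to 3320 CPM with vehicle and 3220 to 3390 CPM with HU. Of the other marker lists, 4 of 11 fibroblast, 2 of 10 immune and 0 of 8 endothelial markers were listed. The fibroblast sum, which includes vimentin, was 3010 to 3350 CPM with vehicle and 3370 to 3400 CPM with HU, and the immune sum was 27.6 to 44.3 and 38.6 to 42.5 CPM. The part of these cell types in the results was not tested.

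Trim33 itself (Entrez 94093, chr3:103083216-103162691 on the plus strand, mm9, protein coding) was examined first. Its level was 49.9 and 43.0 CPM in KO cells with vehicle and 50.1 and 51.5 CPM in KO cells with HU. In WT cells it was 141 and 127 CPM with vehicle and 145 and 142 CPM with HU. Every KO library lay below every WT library, with a log2FC of −1.49 between KO and WT cells under vehicle (standard error, SE, 0.156, adjusted p = 3.48e-11 in edgeR's quasi-likelihood test). HU did not move Trim33 past the threshold in KO cells (log2FC 0.13, SE 0.17, adjusted p = 0.79). The site of the guide in the gene was not used here, and a transcript can persist after CRISPR editing.

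In KO cells, HU raised targets of p53, genes of the integrated stress response, and immediate-early genes, and lowered mitotic genes and replication-dependent histone genes. Of the genes for the replication machinery and for deoxynucleotide supply, 1 was called. At an adjusted p below 0.05, 723 of 11210 genes were called, 521 higher (4.65%) and 202 lower (1.80%). All counts of calls in the gene lists below stand beside these shares. The called genes that rose had a median log2FC of 0.928 and those that fell a median of −0.606, so that 231 of the rises but 31 of the falls reached an absolute log2FC of 1. The median over all genes was −0.0098. The number of calls was 456 with DESeq2. It fell when any single KO library or either WT HU library was left out, and most without a KO HU library. The falls lost a larger share of calls than the rises without KO vehicle replicate 1 or either KO HU library. Without KO vehicle replicate 2 they lost a smaller share.

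**Figure D1:**
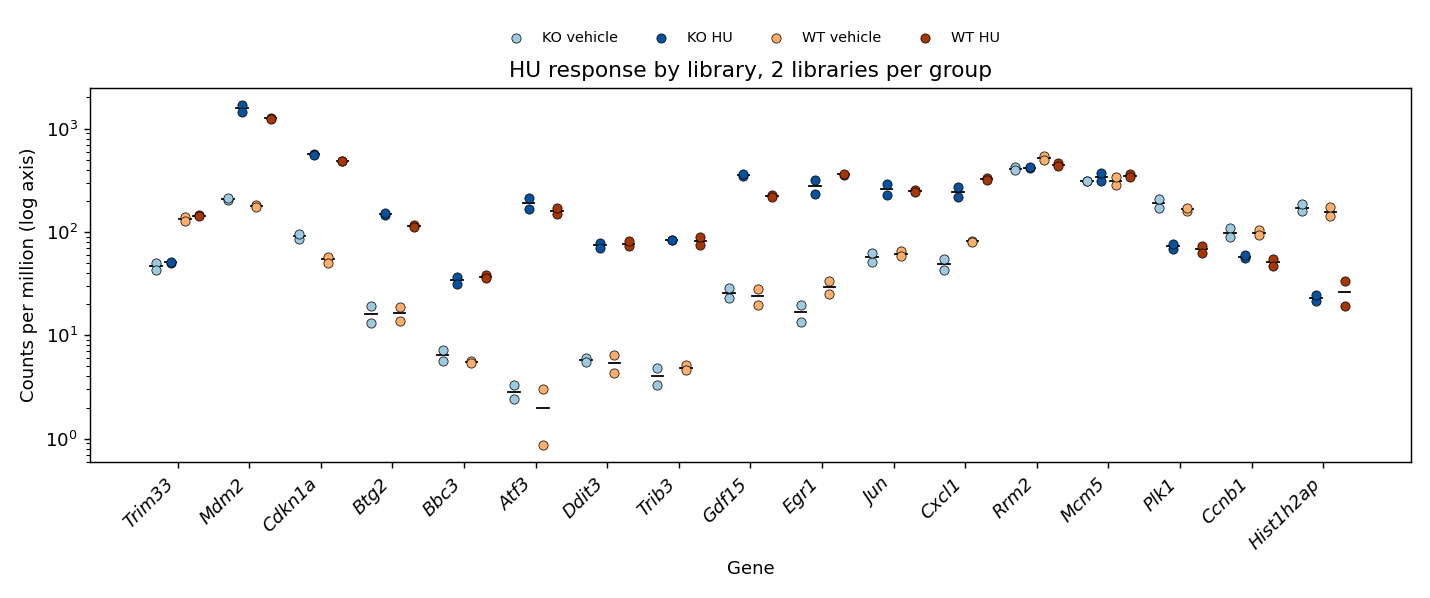
Level of 17 genes in each of the 8 libraries, in CPM on a log axis, with 2 points per group and a bar at their mean. Mdm2 to Cxcl1 lie higher in both KO HU libraries than in both KO vehicle libraries, Rrm2 and Mcm5 lie close together, and Plk1, Ccnb1 and Hist1h2ap lie lower. The groups are KO vehicle, KO HU, WT vehicle and WT HU.

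Targets of p53 in arrest and feedback formed the first group that rose. Of 34 measured members, 24 rose, 0 fell and 10 were not called, with a median log2FC of 0.82. Mdm2, the ubiquitin ligase that degrades p53 (chr10:117125944-117147814, minus strand, mm9), stood at 204 and 213 CPM with vehicle and at 1687 and 1456 CPM with HU. The HU libraries lay far above the vehicle libraries, by a log2FC of 2.91 (SE 0.107, adjusted p = 3.24e-32), or 7.49-fold. Cdkn1a, which encodes the cyclin-dependent kinase inhibitor p21, rose from 85.8 and 95.2 to 569.7 and 556 CPM (log2FC 2.63, SE 0.119, adjusted p = 5.82e-28). Btg2, an antiproliferative gene, rose from 19.2 and 13.1 to 145 and 151 CPM (log2FC 3.20, SE 0.194, adjusted p = 2.01e-21). Trp53inp1, a p53-induced nuclear protein gene, Plk2, a Polo-like kinase gene, Sesn2 and Ccng1 also rose, by log2FC of 2.99, 1.97, 2.06 and 1.03. The summed level of the 34 members was 2746 and 2777 CPM with vehicle and 7176 and 6652 CPM with HU.

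Among p53 targets in apoptosis, 8 of 14 measured members rose and 0 fell, with a median log2FC of 0.65. Bbc3, which encodes the BH3-only protein Puma, was at 5.59 and 7.22 CPM with vehicle and at 36.9 and 31.6 CPM with HU (log2FC 2.39, SE 0.317, adjusted p = 3.04e-08). Pidd1 rose by 1.30, Apaf1, the core of the apoptosome, by 0.77 and Ei24 by 0.69 on the log2 scale. Bax, a pore-forming member of the Bcl2 family, had a log2FC of 0.31 (SE 0.133, adjusted p = 0.182). Pmaip1, the gene of Noxa, was not in the table. Of 9 measured p53 targets in repair, 3 rose and 0 fell, with a median log2FC of −0.044 and 5 members negative. Those that rose were Polk, a translesion polymerase (log2FC 1.42), Ercc5, a nuclease of nucleotide excision repair (1.49), and Pcna, the sliding clamp (0.36, adjusted p = 0.0339). Rrm2b, the p53-inducible subunit of ribonucleotide reductase, was at 33.5 and 18.4 CPM with vehicle and at 17.4 and 10.9 CPM with HU. Its vehicle replicates differed by more than the lower of them differed from the HU replicates, and it was not called (log2FC −0.85, SE 0.3, adjusted p = 0.0792).

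**Figure D2:**
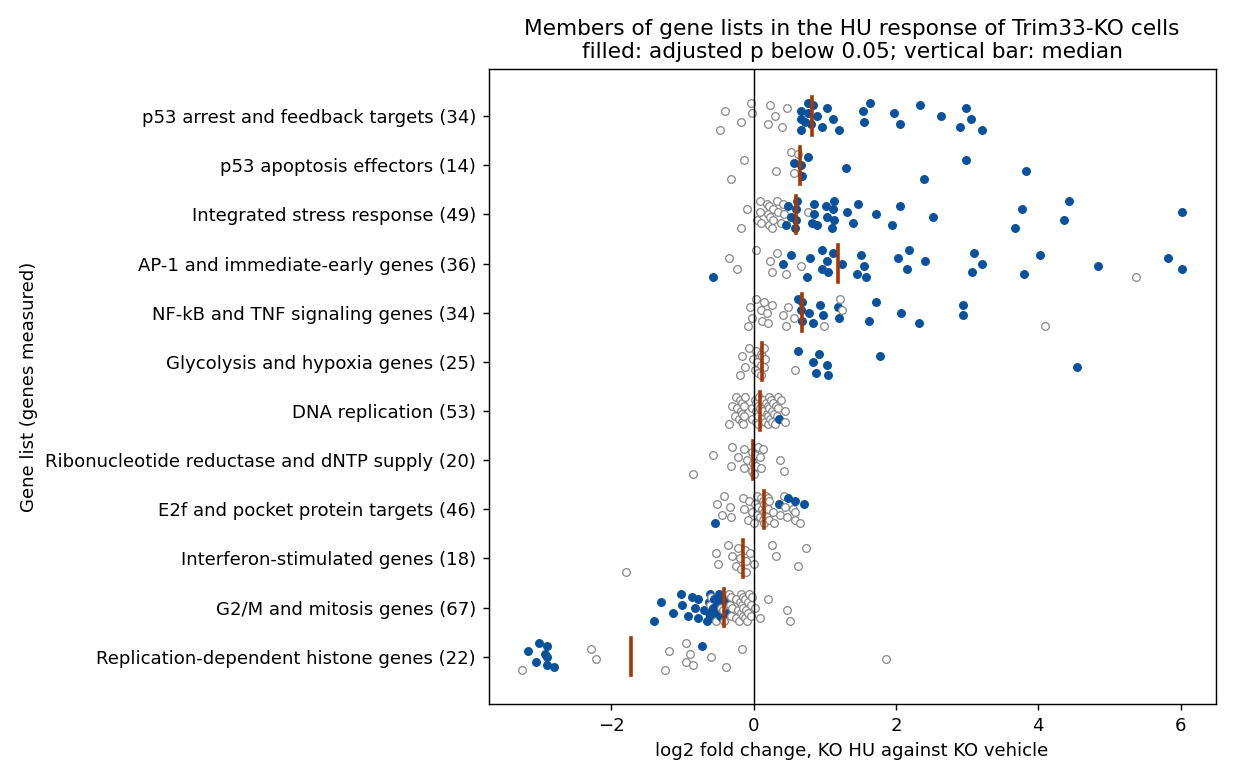
Each point is 1 measured gene of a list, placed by its log2 fold change in KO HU against KO vehicle, with the number of measured genes in brackets, filled points for an adjusted p below 0.05 and a vertical bar at the list median. The p53, integrated stress and immediate-early lists lie to the right of 0, DNA replication and deoxynucleotide genes lie around 0, and mitotic and histone genes lie to the left.

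The promoters of these genes were read from the RefSeq promoter table (build GRCm38.p6), which covers 250 bases before and 50 bases after each start site and matched 8560 of the 11210 genes. A gene counts as holding a motif if any of its listed promoters does, on either strand. The p53 half-site, searched by its degenerate consensus, was found in 10 of the 21 called arrest and feedback targets with a promoter, in 2 of 10 that were not called, and in 7.99% of all 8560 genes. Among the apoptosis effectors it was in 2 of 6 called and 2 of 6 other genes. Windows of Mdm2 and Cdkn1a are shown because these genes open the account of the list, 5′ to 3′ on the gene's own strand, with the half-site in capitals. The Mdm2 window is chr10:117710910-117710969 (minus strand) and the Cdkn1a window chr17:29090881-29090940 (plus strand), both in GRCm38.p6.
Mdm2: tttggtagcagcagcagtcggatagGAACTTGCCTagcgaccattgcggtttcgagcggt
Cdkn1a: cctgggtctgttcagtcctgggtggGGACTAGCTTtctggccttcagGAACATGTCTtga
The Cdkn1a window holds 2 matches and the Mdm2 window 1. A match is a description of the letters and not a measured binding site.

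The integrated stress response is the program by which phosphorylation of eIF2α favors translation of Atf4, which then induces genes of amino acid supply and stress signaling. Of its 49 measured genes, 29 rose and 0 fell in KO cells, with a median log2FC of 0.60. Atf3, a stress-induced bZIP factor that also belongs to the immediate-early list, rose from 2.40 and 3.28 CPM to 215 and 167 CPM (log2FC 6.03, SE 0.252, adjusted p = 1.47e-29). Ddit3, the gene of Chop, rose from 5.99 and 5.58 to 78.4 and 70.2 CPM (log2FC 3.67, SE 0.263, adjusted p = 3.94e-18). Gdf15, a secreted stress cytokine, rose from 22.8 and 28.9 to 350.3 and 363 CPM (log2FC 3.77, SE 0.153, adjusted p = 3.91e-30). Trib3, a pseudokinase gene, and Chac1, which encodes a glutathione-degrading enzyme, rose by log2FC of 4.37 and 4.43. Atf4 mRNA itself rose less, from 269 and 315 to 553 and 501 CPM (log2FC 0.84, SE 0.105, adjusted p = 5.77e-09). Further down the pathway, Ppp1r15a, the phosphatase subunit that restores eIF2α, rose by 2.52, the cystine transporter gene Slc7a11 by 1.31 and asparagine synthetase, Asns, by 0.82 on the log2 scale. The unfolded protein response of the endoplasmic reticulum moved in few genes, with 4 of 25 higher, 0 lower and a median log2FC of −0.009. These were the chaperone genes Hspa5 (log2FC 0.78) and Dnajb9 (1.38) and the sensor kinases Eif2ak3 (1.60) and Ern1 (0.71, adjusted p = 0.0229). Dnajb9 and Ern1 were not called without KO vehicle replicate 2. Ern1 was also not called without KO vehicle replicate 1, without KO HU replicate 1 or with DESeq2.

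The C/ebp-Atf response element, searched as TGATGNAA on both strands, was held by 11 of the 26 called genes of the integrated stress response with a promoter and by 5 of the 15 that were not called, against 2.44% of all 8560 genes. Windows are shown with the element in capitals, since Atf3 and Chac1 were among the largest rises and the Slc7a11 window holds the element on both strands. They are chr1:191183410-191183469 (minus strand) for Atf3, chr2:119351023-119351082 (plus strand) for Chac1 and chr3:50443646-50443705 (minus strand) for Slc7a11, in GRCm38.p6.
Atf3: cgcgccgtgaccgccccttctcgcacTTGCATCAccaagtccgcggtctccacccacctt
Chac1: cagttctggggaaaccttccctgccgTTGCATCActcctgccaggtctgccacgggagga
Slc7a11: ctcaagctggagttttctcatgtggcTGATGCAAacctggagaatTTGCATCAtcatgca
The share was 42.3% in called and 33.3% in uncalled members, both above that of all genes.

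Immediate-early genes, the transcription factors and ligands that growth and stress signals switch on first, also rose. Of 36 measured members, 26 rose and 1 fell, with a median log2FC of 1.18. Egr1 (Entrez 13653), a zinc finger factor, rose from 13.6 and 19.7 to 320.4 and 232 CPM (log2FC 4.03, SE 0.174, adjusted p = 7.19e-29). Jun rose from 51.1 and 62.4 to 293 and 227 CPM (log2FC 2.18, SE 0.141, adjusted p = 3.2e-20), and its relative Jund from 35.1 and 42.01 to 205 and 208 CPM. Fos and Egr3 were nearly silent with vehicle. Fos had 2 counts over both vehicle libraries and 62 with HU, a ratio of 31.7 (95% counting interval 8.4 to 267), and Egr3 had 1 and 70 counts, a ratio of 71.5 (12.4 to 2860). Fos had 20 and 42 counts in the KO HU libraries, a spread that these intervals leave out. The 12 largest rises were taken at a mean of at least 5 CPM over the KO libraries. Both genes reached that level only through the HU libraries, so the choice favored large ratios. The intervals also take counts as independent and are too narrow if a fragment was counted more than once. That was not tested, and most low counts in every library were even. Areg, the gene of the EGF receptor ligand amphiregulin, rose by a log2FC of 2.16, and Myc by 0.53 (adjusted p = 0.00118). The member that fell was Ctgf, at a log2FC of −0.56 (adjusted p = 0.00198), which was not called without KO HU replicate 2. Among Nras and MAPK feedback genes, 7 of 24 rose and 1 fell, including Phlda1 (log2FC 1.34), Lif (1.55) and Dusp5 (1.11), while Etv1, an Ets factor gene with 14 and 18 counts under vehicle and 2 and 2 with HU, fell (−2.90, SE 0.752, adjusted p = 0.00771) but was not called without either KO HU library. The cyclic AMP response element TGACGTCA was in 4 of the 19 called immediate-early genes with a promoter and 0 of 7 others, against 3.77% of all genes, and the AP-1 site TGANTCA in 1 of 19 and 0 of 7, against 6.2%.

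Genes of NF-kB and TNF signaling also rose, 16 of 34 measured, with 0 lower and a median log2FC of 0.68. Ptgs2, the inducible cyclooxygenase, rose from 684 and 612 to 2265 and 2024 CPM (log2FC 1.72, SE 0.103, adjusted p = 1.06e-21). The chemokine gene Cxcl1 rose from 54.3 and 43.3 to 272 and 218 CPM (log2FC 2.33, SE 0.142, adjusted p = 2.13e-21). Csf2 rose by a log2FC of 2.95, Traf1 by 2.07 and the subunit gene Rela by 0.98, whereas the inhibitor gene Nfkbia had a log2FC of 0.45 (adjusted p = 0.118). Without KO HU replicate 1, 10 members were called. Of 18 measured interferon-stimulated genes, 0 were called in edgeR's test or with DESeq2 and 1 had an unadjusted p below 0.05, with a median log2FC of −0.15. Among C/EBP factors and targets, 4 of 10 rose and 1 fell. Higher were Ddit3 and Cxcl1, given above, Mt2 (log2FC 1.15) and Cebpg (0.53), and Cebpz (−0.49) was lower. Cebpg was not called without KO vehicle replicate 2 or KO HU replicate 1. Cebpz was not called without KO vehicle replicate 1 or either KO HU library. Cebpb and Cebpd, which encode C/EBP factors, were not called (log2FC 0.42 and 0.80, adjusted p = 0.177 and 0.0769). Of 10 measured REST targets, 0 were called in edgeR's test or with DESeq2, with a median log2FC of 0.30. In edgeR's test 0 had an unadjusted p below 0.05. Since 4.65% of all genes rose and 1.80% fell, 0 calls in this list or the interferon list is not a result about these genes. In WT cells 2 REST targets (list median 0.70) and 1 interferon-stimulated gene rose, and 0 members of either list passed the test of the difference.

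Glycolysis and hypoxia genes rose in part, 8 of 25 measured, with 0 lower and a median log2FC of 0.11. Ndrg1, a stress- and hypoxia-induced gene, rose from 3.99 and 5.25 to 121 and 101 CPM (log2FC 4.55, SE 0.245, adjusted p = 7.85e-24). Vegfa, the angiogenic growth factor, Slc2a1, a glucose transporter gene, and Egln3, a prolyl hydroxylase gene, rose by log2FC of 1.05, 0.92 and 1.03. In this list 5 members were called without KO vehicle replicate 1, and 5 without KO HU replicate 1. Txnip, an inhibitor of thioredoxin and of glucose uptake, belongs to no list and was among the 12 largest rises, from 13.2 and 11.2 to 140.0 and 113 CPM (log2FC 3.38, SE 0.196, adjusted p = 3.24e-22).

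For the machinery that HU acts upon, counts of calls stand beside the 4.65% of all genes that rose and the 1.80% that fell, so that a count near 0 in lists of this size is not a result about these genes. Of 20 measured genes of ribonucleotide reductase and deoxynucleotide supply, 0 were called in edgeR's test or with DESeq2 and 5 had an unadjusted p below 0.05, with a median log2FC of −0.014. Rrm1 and Rrm2, the subunits of the enzyme, had log2FC of 0.06 (SE 0.101, adjusted p = 0.85) and 0.03 (SE 0.103, adjusted p = 0.942). Rrm2 stood at 428 and 394 CPM with vehicle and at 414 and 426 CPM with HU, with overlapping groups. Of 53 DNA replication genes, 1 rose, Pcna, and 0 fell, with a median log2FC of 0.089. Mcm5, a subunit of the replicative helicase, had a log2FC of 0.14 (SE 0.11, adjusted p = 0.588). Of 21 fork checkpoint genes, 1 rose, Clspn, the adaptor for activation of Chek1 (log2FC 0.47, SE 0.145, adjusted p = 0.0367), while Chek1 was at −0.22 (adjusted p = 0.644). Neither Pcna nor Clspn was called with DESeq2 (adjusted p = 0.0756 and 0.125) or without KO vehicle replicate 1, KO HU replicate 1 or KO HU replicate 2.

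Targets of E2f factors and pocket proteins, the regulators of entry into S phase, were mostly not called. Their log2FC was positive in 35 members and negative in 11. The counts of calls stand beside the 4.65% of all genes that rose and the 1.80% that fell. Of 46 measured members, 4 rose and 1 fell, with a median log2FC of 0.15, and the number called higher was 0 without KO vehicle replicate 1, 2 without KO HU replicate 1, 1 without KO HU replicate 2 and 2 with DESeq2. Among those that rose were Brca1 (log2FC 0.58), E2f7 (0.70) and Pcna, and Ccna2, the gene of cyclin A2, fell by 0.55 on the log2 scale (adjusted p = 0.000235). Among cyclins, kinases and inhibitors of G1/S, 4 of 16 rose and 0 fell: Cdkn1a, Ccnd2 (log2FC 0.53), Cdk2 (0.56, adjusted p = 0.0489) and Cdkn2b (0.92, adjusted p = 0.049). Only Cdkn1a was called without KO vehicle replicate 1, and 2 members were called without any other single KO library, without either WT HU library, with DESeq2 or with RLE size factors. E2f4 itself was at 80.3 and 75.2 CPM with vehicle and 57.5 and 66.3 CPM with HU, a log2FC of −0.33 that did not pass (SE 0.169, adjusted p = 0.291). The helicase gene Recql had a log2FC of −0.09 (SE 0.274, adjusted p = 0.927), and the sign of its change turned when KO vehicle replicate 1 was left out. The E2f letters TTNNCGC were in 3 of 3 called members with a promoter, in 25 of the 30 that were not called and in 38.9% of all genes.

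Mitotic genes made up the larger of the groups that fell. Of 67 measured genes of G2/M and mitosis, 30 fell and 0 rose, with a median log2FC of −0.41, and 62 had a negative log2FC. Plk1, the mitotic kinase, fell from 169 and 209.7 to 68.3 and 77.2 CPM (log2FC −1.39, SE 0.141, adjusted p = 6.33e-12). Ccnb1, the gene of cyclin B1, fell from 108 and 89.0 to 55.7 and 59.7 CPM (log2FC −0.77, SE 0.164, adjusted p = 0.000599). Cenpf, a kinetochore gene, Espl1, the gene of separase, and Aspm, a spindle gene, fell by 1.01, 1.30 and 1.13 on the log2 scale, and Cdc20, the activator of the anaphase-promoting complex, by 0.61. The summed level of all 67 genes was 11322 and 10669.7 CPM with vehicle and 8786 and 8282 CPM with HU. In bulk RNA, fewer cells in G2 and M and less of these mRNAs per cell cannot be told apart. The number of members called fell to 19 without KO vehicle replicate 1, to 13 without KO HU replicate 2 and to 21 with DESeq2.

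The cell cycle homology region, searched as TTTGAA on both strands, was held by 21 of the 27 called G2/M genes with a promoter and by 18 of the 30 that were not called, against 14.1% of all genes. The CCAAT box, searched as CCAAT on both strands, was held by 22 of 27 and 22 of 30, against 44.1%. Windows of Cdc20 and Espl1 are shown with the homology region in capitals and those of Plk1 and Cenpf with the CCAAT box in capitals, because they are called genes of the list with a match before the start site. They lie at chr4:118437344-118437403 (minus strand) for Cdc20, chr15:102296233-102296292 (plus strand) for Espl1, chr7:122159375-122159434 (plus strand) for Plk1 and chr1:189688186-189688245 (minus strand) for Cenpf, in GRCm38.p6.
Cdc20: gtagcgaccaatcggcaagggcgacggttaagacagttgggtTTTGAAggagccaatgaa
Espl1: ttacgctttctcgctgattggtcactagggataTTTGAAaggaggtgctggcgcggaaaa
Plk1: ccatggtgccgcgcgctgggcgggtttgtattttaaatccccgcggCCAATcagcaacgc
Cenpf: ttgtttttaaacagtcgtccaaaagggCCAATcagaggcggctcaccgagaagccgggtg
In percent, the homology region was in 77.8% of called and 60% of uncalled members, and no binding was measured here.

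Replication-dependent histone genes gave the deepest falls. Of 22 measured, 9 fell and 0 rose, with a median log2FC of −1.73. Of the 9, 8 encode histone H2A, and the other is the linker histone gene Hist1h1c (log2FC −0.72, adjusted p = 0.0388), which was at 36.9 and 17.9 CPM in the HU libraries. Hist1h2ap (Entrez 319171, chr13:21924926-21925444, minus strand, mm9) fell from 159 and 185 to 21.6 and 24.6 CPM (log2FC −2.91, SE 0.183, adjusted p = 1.01e-20). Hist1h2ag fell from 68.3 and 80.4 to 8.36 and 8.19 CPM (log2FC −3.17, SE 0.288, adjusted p = 1.07e-13). Every HU library lay below every vehicle library for these genes, but the rule that named them required this. The coding sequences of 7 of the 8 H2A genes, 393 bases each in the GENCODE transcripts for mm9, are between 97.96% and 100% identical in their 21 pairs. Hist1h2ap and Hist1h2ao do not differ at all there and have nearly the same counts, so the H2A calls may rest on shared reads and are uncertain as separate genes. The summed level of the 22 genes was 668 and 762 CPM with vehicle and 182 and 175 CPM with HU. With a minimum of 5 CPM in every library, 4 of the genes were called. That minimum removes genes that fell below it with HU, such as Hist1h2ac, at 3.48 and 3.90 CPM in KO HU. The lower count thus follows in part from the falls themselves.

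**Figure D3:**
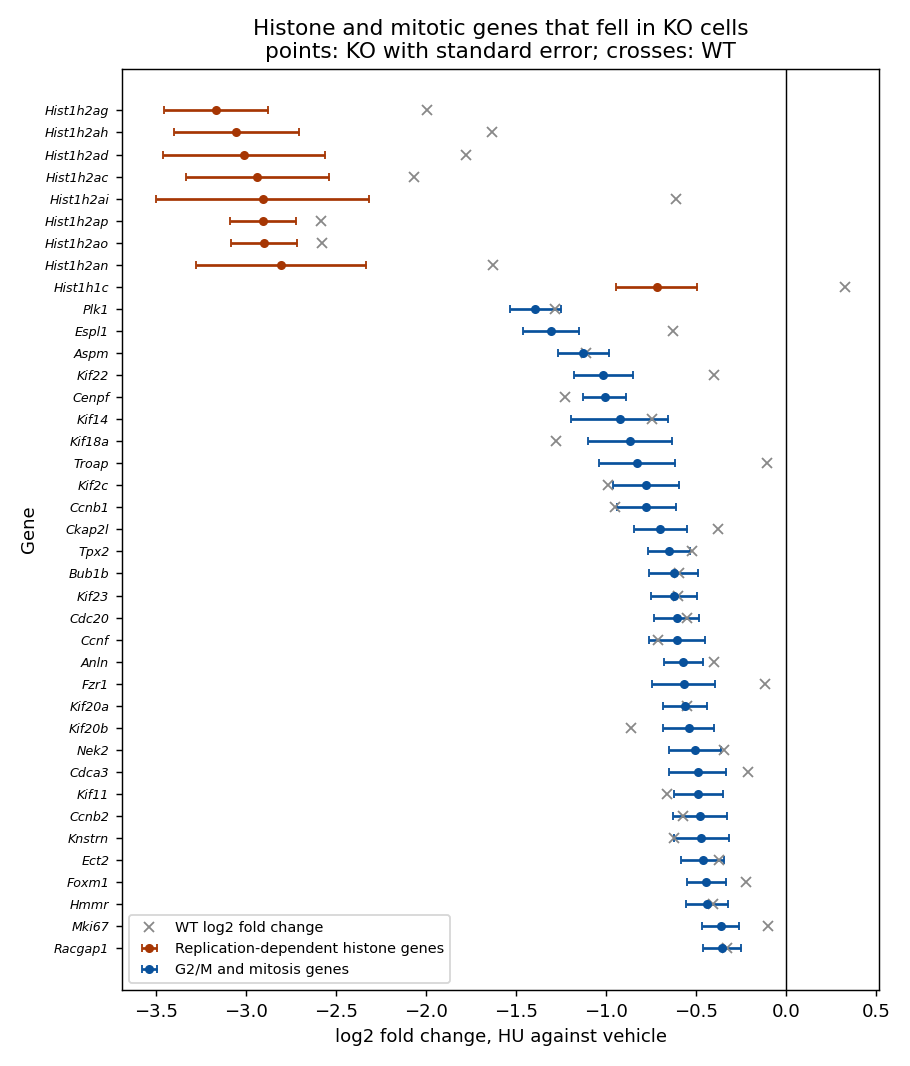
Log2 fold change of HU against vehicle for the called members of the histone and mitotic lists, with the standard error of the KO value as the bar and the WT value as a cross. The 8 H2A genes lie between −3.17 and −2.81 in KO cells, the linker histone gene Hist1h1c lies at −0.72, and the mitotic genes between −1.39 and −0.36.

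Among replacement histone genes, which are expressed outside S phase as well, 2 of 9 fell. H2afx, which encodes the variant that is phosphorylated at DNA breaks, fell from 142 and 170.4 to 64.1 and 50.7 CPM (log2FC −1.45, SE 0.159, adjusted p = 9.54e-11). H1f0, a linker histone gene, fell from 544 and 611 to 304 and 251 CPM (log2FC −1.06, SE 0.107, adjusted p = 4.3e-12).

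WT cells were treated in the same way, and the test of a difference between the genotypes is the interaction of HU and genotype. In WT cells 716 genes rose (6.39%) and 386 fell (3.44%). The responses share no library, and 474 genes were called in both, which is 65.6% of the KO calls and 43% of the WT calls. Of these, 473 changed in the same direction, 375 higher and 98 lower, and the exception was Lars2. Over the 10373 genes with a mean of at least 5 CPM, the Pearson correlation of log2FC between KO and WT cells was 0.631, as a description across genes, which are not independent replicates. For the genes higher in both, the median log2FC was 0.987 in KO and 1.083 in WT cells, and for those lower in both it was −0.587 and −0.606. In KO cells 249 genes were called that were not called in WT cells, of which 226 had the same sign there and 5 passed the test of the difference.

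**Figure D4:**
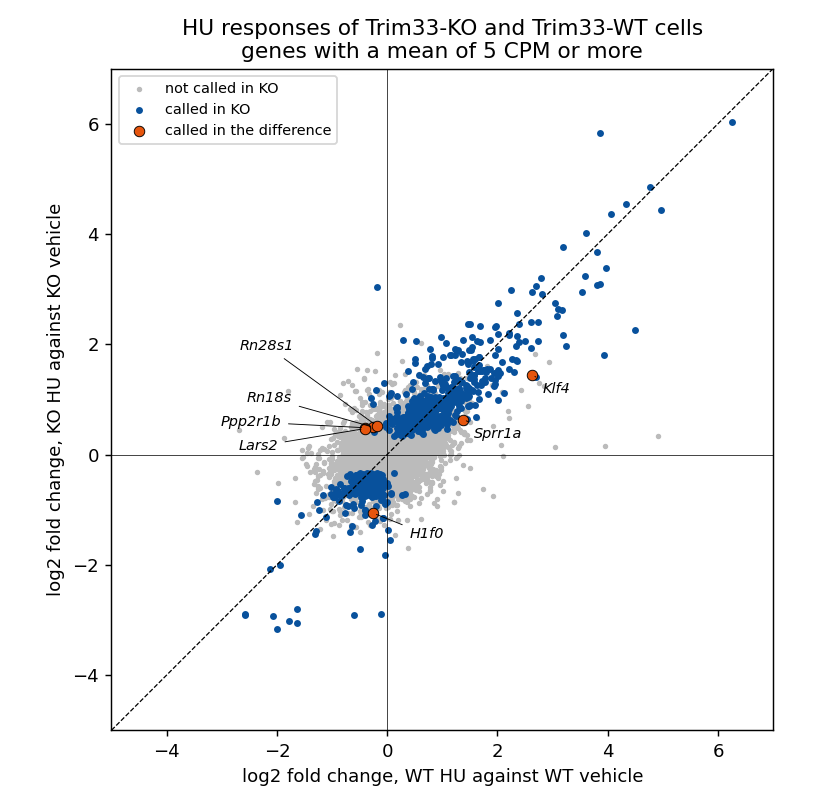
Log2 fold change of HU against vehicle in KO cells (vertical) and WT cells (horizontal) for the 10373 genes with a mean of at least 5 CPM, with a dashed line of equal change, genes called in KO cells in blue, and the 7 named genes of the difference in orange. Most called genes lie along the line, with a Pearson correlation of 0.631 over all points.

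The lists were counted in both genotypes. In WT cells, 23 p53 arrest targets, 8 apoptosis effectors, 34 genes of the integrated stress response and 28 immediate-early genes rose, and 29 mitotic genes and 8 replication-dependent histone genes fell. The medians in WT cells were 0.80, 0.67, 0.74, 1.54, −0.36 and −1.13, in that order, against 0.82, 0.65, 0.60, 1.18, −0.41 and −1.73 in KO cells. For the histone list the WT HU libraries differed from each other, with summed levels of 289 and 215 CPM, against 182 and 175 CPM in KO HU. Hist1h2ag was at 23.7 and 8.12 CPM in WT HU. NF-kB and TNF genes rose in 24 members in WT and 16 in KO cells. Over these lists, 1 member passed the test of the difference, Klf4. For Mdm2 the difference in log2FC, KO minus WT, was 0.09 (95% interval −0.20 to 0.39, adjusted p = 0.972), and for Plk1 it was −0.11 (−0.51 to 0.29, adjusted p = 0.976). Cdkn1a had a difference of −0.54 (−0.89 to −0.19) and Ptgs2 one of −0.62 (−0.91 to −0.33), with adjusted p of 0.641 and 0.0721, where the intervals are not adjusted for the number of genes. Under vehicle, KO cells were above WT cells by a log2FC of 0.79 for Cdkn1a and 1.22 for Ptgs2 (adjusted p = 3.71e-05 and 3.67e-14).

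The HU response differed between KO and WT cells in 8 of 11210 genes (0.0714%), 5 with a more positive and 3 with a more negative log2FC in KO cells, and 602 genes had an unadjusted p below 0.05. H1f0 fell in KO cells as given above and stood at 691 and 736 CPM with vehicle and 613 and 591 CPM with HU in WT cells, a difference of −0.81 (SE 0.148, adjusted p = 0.00935). Klf4, a zinc finger transcription factor gene, rose from 60.7 and 59.1 to 167 and 161 CPM in KO cells and from 40.2 and 23.7 to 187 and 206 CPM in WT cells. It thus rose in both, and less in KO cells (difference −1.17, SE 0.228, adjusted p = 0.0108). Under vehicle, Klf4 was already higher in KO than in WT cells, by a log2FC of 0.96 (adjusted p = 0.000116 in edgeR's test). Without WT vehicle replicate 2 the difference in response was −0.81. Sprr1a, a cornified envelope gene, was at 474 and 551 CPM in KO vehicle and 96.7 and 96.3 CPM in WT vehicle, and rose to 816 and 783 and to 256 and 248 CPM. Its rise was smaller in KO cells on the log2 scale (difference −0.74, SE 0.156, adjusted p = 0.0235) from a higher level. Ppp2r1b, a scaffold subunit gene of protein phosphatase 2A, rose from 142 and 122 to 180.0 and 190.4 CPM in KO cells and was at 95.02 and 105 CPM with vehicle and 76.6 and 76.2 CPM with HU in WT cells (difference 0.89, SE 0.193, adjusted p = 0.0317). The number of such genes was 5 with DESeq2, 0 without either WT HU library, and between 1 and 20 without any other single library.

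Of the other genes that passed, Rn18s and Rn28s1 are ribosomal RNAs, and Lars2 encodes the mitochondrial leucyl-tRNA synthetase. Rn18s was at 1861 and 1848 CPM in KO vehicle, 2679 and 2571 in KO HU, 2784 and 2018 in WT vehicle and 1968 and 2098 in WT HU (difference 0.75, SE 0.141, adjusted p = 0.00935). Rn28s1 and Lars2 had differences of 0.71 and 0.88 (adjusted p = 0.0174 and 0.0168). In all 3 both KO HU libraries lay above both KO vehicle libraries. The share of counts from Rn18s and Rn28s1 was 0.223% and 0.228% in KO vehicle, 0.324% and 0.316% in KO HU, 0.325% and 0.254% in WT vehicle and 0.241% and 0.253% in WT HU. How much ribosomal RNA a library retained, and its part in these differences, was not tested. The last gene has no symbol (Entrez 100502672). It had 0 counts in both KO vehicle libraries and 39 and 13 in KO HU. In WT cells it had 4 and 16 counts with vehicle and 12 and 8 with HU. Against a floor of 3 counts over the KO vehicle group, the pooled KO HU counts were 17.7-fold higher. That ratio leaves out the spread between the HU libraries and is not a bound.

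**Figure D5:**
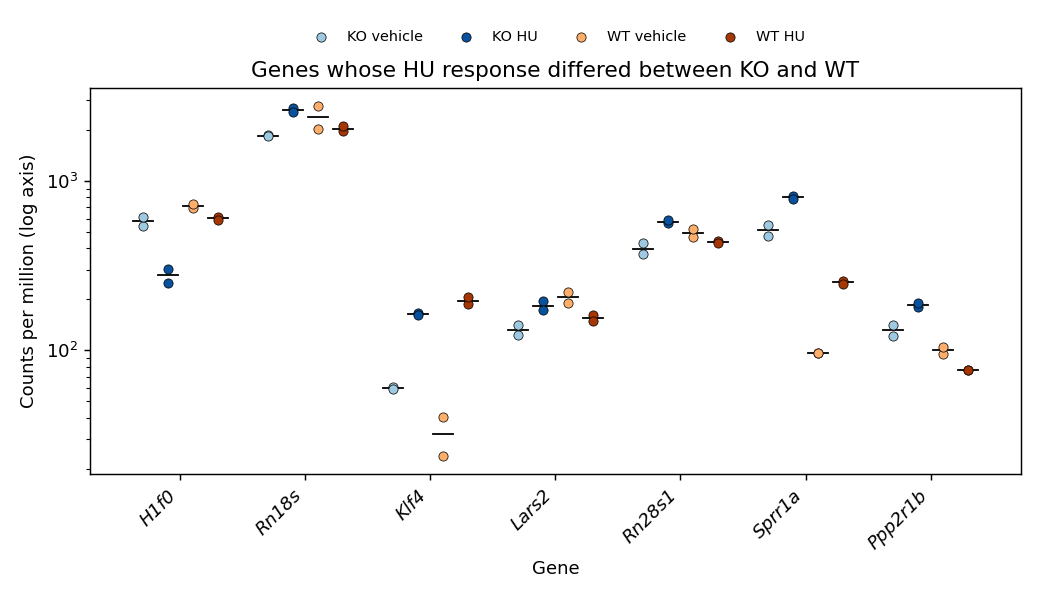
Level of the 7 named genes whose HU response differed between genotypes, in CPM on a log axis, with 2 points per group and a bar at their mean. H1f0 falls with HU mainly in the KO libraries, Klf4 and Sprr1a rise in both genotypes, and Rn18s, Rn28s1, Lars2 and Ppp2r1b lie higher in both KO HU libraries than in both KO vehicle libraries.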

How the data were processed

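RNA was extracted with TRIzol and libraries were made with the NEBNext Ultra II kit, per the labels. The authors mapped reads to mm9 with STAR 2.5.4 and deposited whole-number counts per gene. The counting tool, annotation and strand setting are not given in the sources used here. The authors' tables of their own edgeR 3.26.8 comparisons (fold changes, p-values) and the counts of the Myc experiment were not used.

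All 8 libraries of the HU experiment were fitted together in edgeR 4.0.16 (R 4.3.3, TMM normalization, 1 coefficient per group, quasi-likelihood test, Benjamini-Hochberg adjustment over 11210 genes, threshold 0.05). The low-count filter removed 0 genes. The fit left 4 residual degrees of freedom, and its common biological coefficient of variation was 0.102. With 2 libraries against 2, the smallest two-sided permutation p is 0.333, so that the tests rest on spread shared across genes. Replicate libraries had a mean variance of 2.22 to 4.56 times that of counting error alone. That error takes counts as independent and is too small if a fragment was counted more than once, which was not tested. Standard errors are the log2FC divided by the square root of F. The procedure was checked on simulated data. Ratios with few counts carry exact intervals for counting error only. DESeq2 1.42.0 was an alternative.

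The gene lists, named genes and comparisons were chosen with earlier results of these data known. Named genes are Trim33, the 12 largest rises and falls among called genes of at least 5 CPM whose groups do not overlap, up to 5 called members per list by adjusted p (up to 2 where none was called), the called genes of the difference, and a fixed set. Genes outside this rule that complete a count, such as Etv1, Cebpz and Smad5, and the choice of printed windows came after their values were seen. The p53 half-site search was added after the data were seen. Some genes that the rule names are not reported here. Locations in mm9 come from GENCODE vM1.

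Among counts from 1 to 50, 70.2% to 73.3% were even in each library, and halving the counts was therefore an alternative.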

Additional observations from a re-analysis of the deposited data

Results flagged for a closer look

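A difference between the HU responses of KO and WT cells passed edgeR's interaction test in 8 genes, while 602 had an unadjusted p below 0.05 and 5 passed with DESeq2. The differences in log2FC, KO minus WT, were −0.81 for H1f0, −1.17 for Klf4, −0.74 for Sprr1a, 0.75 for Rn18s, 0.71 for Rn28s1, 0.88 for Lars2 and 0.89 for Ppp2r1b. For Entrez 100502672, which had 0 counts in both KO vehicle libraries, the fitted difference of 7.96 depends on the prior count and is no bound. Lars2 rose in KO cells (log2FC 0.47, adjusted p = 0.0113) and fell in WT cells (−0.41, adjusted p = 0.0224). With DESeq2, Rn18s had an adjusted p of 1 at a difference of 0.75, and Ppp2r1b one of 0.106.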

How the results depend on the processing

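The counts of KO calls moved by over 1.5 times under the following settings, and the cause was not tested. With DESeq2 they were 456 in all, 347 higher and 109 lower, with an absolute log2FC of at least 1 they were 262, 231 and 31, and at an adjusted p below 0.01 they were 427, 339 and 88. The stricter settings call fewer genes by construction. In WT cells the same settings gave 727, 336 and 655 calls, and in the difference 5, 2 and 2. Leaving out 1 library gave between 389 and 829 KO calls, 303 to 585 higher and 86 to 244 lower, between 553 and 1230 WT calls (553 without WT HU replicate 1 and 580 without replicate 2), and between 0 and 20 in the difference, with 0 without either WT HU library, 1 without either KO HU library and 20 without WT vehicle replicate 1. The Trim33 check stayed between −1.61 and −1.38. A replicate block gave 825, 1230 and 10 calls, including every gene called without it. Deviations of same-numbered libraries correlated between −0.025 and 0.091 over 6 pairs of groups. This does not settle whether the replicate numbers pair the samples, because counting error is part of each deviation and lowers such correlations. Under the block, Cdc6 and Rrm2b passed in KO cells (adjusted p = 0.0478 and 0.0458). Of 117 named genes called in KO cells, 81 were called under every one of the 15 alternatives that gave a value, and all 117 kept their sign. Signs turned in uncalled genes when 1 library was left out, with log2FC of −0.31 to 0.062 for Wee1, −0.14 to 0.52 for Cd14, −0.32 to 1.90 for Apob, −1.42 to 1.16 for Cd68, −0.015 to 0.16 for Smad7, −0.30 to 0.087 for Afp, −0.36 to 0.21 for Recql, −0.041 to 0.096 for Rrm2 and −0.13 to 0.077 for Rbl1. Library totals limit the precision for low genes such as Fos, Egr3 and Apob.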

Other observations

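The lists in this section had few calls, against 4.65% of all genes higher and 1.80% lower. Their counts were not tested against these shares, and a count near them is not a result about the list. Of 14 circadian clock genes, 4 rose in KO cells: Nfil3 (log2FC 1.70), Nr1d1 (1.25), Tef (0.69) and Arntl (1.39). Tef and Arntl were not called without KO vehicle replicate 2. The call of Tef was also lost without KO HU replicate 1, and that of Arntl without KO HU replicate 2. Of 10 genes of polyamine synthesis and control, 3 rose, namely the catabolic enzyme genes Sat1 (1.32) and Smox (1.10) and the synthetic enzyme gene Odc1 (0.69). Of 28 Nrf2 pathway and antioxidant genes, 3 rose. Sqstm1 rose from 662 and 745 to 1449 and 1380 CPM (log2FC 1.00, adjusted p = 1.05e-12). Hmox1 rose by 0.67, but was not called without KO vehicle replicate 2 or KO HU replicate 1. Of 19 heat shock chaperone genes, 2 fell, Hspa8 from 3074 and 3115 to 1796 and 1910 CPM (log2FC −0.75, adjusted p = 2.23e-09) and Hsph1 (−0.42), which was not called without KO vehicle replicate 1 or KO HU replicate 1. In WT cells 8 fell and 2 rose, and 0 members passed the test of the difference in edgeR.

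Of 43 genes of ribosome biogenesis, 4 fell: Rrs1 (−0.50), Nolc1 (−0.41), Ddx21 (−0.36) and Gnl3 (−0.44). Of these, 0 were called without KO HU replicate 2, 1 without KO HU replicate 1 or KO vehicle replicate 1, and 2 without either WT HU library. The E-box CACGTG was in 0 of 3 called members with a promoter, in 11 of 35 others and in 12.1% of all genes. Of 30 TGF-β and BMP genes, 4 rose and 3 fell, with Inhba, an activin subunit gene, up by 1.27, and the BMP targets Id1 and Id2 at −0.61 and −0.53. Trim24 (0.48), a relative of Trim33, was called, but not with DESeq2 or without KO vehicle replicate 2 or KO HU replicate 1. Smad3 (0.42) was called, but not without KO vehicle replicate 2 or either KO HU library. Smad5 (−0.57) was also called in this list. Without KO HU replicate 1, 2 were called higher and 1 lower. Among 21 Hippo-Yap genes 2 fell, Ctgf and Ajuba (−0.66), and 0 were called lower without KO HU replicate 2. Of 27 cholesterol genes, 1 rose, Hsd17b7 (0.65), a share near the 4.65% of all genes, and it was not called with DESeq2 or without any single KO library. Of 13 fatty acid genes, Lpin1 rose (2.02) and Elovl6 fell (−0.60), and 0 were called lower without KO HU replicate 1. Of the 5 cholangiocyte and progenitor markers, with a median log2FC of 0.176, 2 were called, Krt19 (0.49) and Sox9. Sox9 rose from 19.96 and 15.1 to 96.8 and 84.3 CPM (log2FC 2.37, adjusted p = 2.77e-14), and by 1.47 in WT cells. Of 36 homologous recombination, Fanconi and RecQ genes, 2 rose, including Brca1, a share near the 4.65% of all genes. The list median was 0.006, with 18 members positive and 18 negative. Neither call held without KO vehicle replicate 1 or KO HU replicate 1. Of 14 Bcl2 family genes, 2 rose, Bbc3 and Bnip3 (0.84), and 1 was called without KO vehicle replicate 1, without KO HU replicate 1 or with DESeq2. Outside the lists, the costimulatory ligand gene Cd80 rose (log2FC 3.24, SE 0.464), and the helicase gene Pif1 fell from 35.9 and 31.8 to 8.36 and 8.58 CPM (log2FC −2.00, adjusted p = 1.71e-06). Arhgef39, Galnt3 and Gulp1 had log2FC of −2.07, −1.83 and −1.71 (adjusted p = 0.022, 0.039 and 0.0243 in edgeR) and were not called with DESeq2 or without KO HU replicate 2. Of the 723 called genes, 524 belong to no list.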
